A study of Mus musculus with 8 samples.

Results

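The genes described here are 46 of the 26180 genes annotated by RefSeq on GRCm38.p6, the assembly that browsers call mm10. They are a list of named genes whose products build or command motile cilia, drawn up with earlier results of these data known and with no peak used as a criterion: 40 encode parts of the axoneme or factors that preassemble its dynein arms, 2 encode tektins, and 4 are regulators of multiciliated cells. For each gene the promoter was taken as the window from 1 kb upstream to 100 bp downstream of every annotated transcription start site (TSS), and a peak counted when it overlapped that window by at least 1 bp. The cells were the whole epidermis of newborn (P0.5) wild-type mice, taken from back skin, so keratinocytes were mixed with the minor cell types of the epidermis, and a gene marked in few cells cannot be told apart from a gene weakly marked in many. Peak lists of 4 antibodies were used, 1 library each: MOF by ChIPseq on fixed chromatin, and Rfx2, H3K4me3 and H3K27Ac by Cut&Run, in which an antibody tethers a nuclease that releases the fragments to be sequenced. No group was compared with another, no antibody had a second list, and the difference between any 2 libraries of 1 antibody is therefore unknown here. The lists hold no read counts, so depth is unknown from them. By the read totals that the study states for its libraries, Rfx2 was the shallowest of the 4, so an Rfx2 peak that is absent may be one not detectable at that depth. No statistical test across replicates was possible.

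Motile cilia beat because dynein arms on the outer doublet microtubules slide them against each other, while radial spokes, the central apparatus and the nexin-dynein links turn sliding into bending. They are found on multiciliated cells of airway, ependyma and oviduct and, as flagella, on sperm, whereas keratinocytes form the single, non-motile primary cilium, which has neither dynein arms nor a central apparatus. RFX factors bind the X-box, an inverted repeat found before many cilia genes of both kinds, and Foxj1 is the factor known for the motile programme. MOF is the acetyltransferase of histone H4 lysine 16, H3K4me3 marks promoters that are active or permissive, and H3K27Ac marks active promoters and enhancers.

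The X-boxes at the promoters of these genes are shown first, because the same motif stood at promoters with every peak and at promoters with none. An exact X-box, searched on both strands with an overlapping match counted once, was present in the promoter window of 12 of the 46 genes (26.1%, exact Clopper-Pearson 95% interval 14.3 to 41.1), against 22.2% of 63 further motile cilia genes, 15.7% of 108 primary cilium genes (9.45 to 24.002) and 2.998% of all genes. The letters are RefSeq's on GRCm38.p6, written 5′ to 3′ on the named strand, with the X-box in capitals.
Ccdc103, chr11:102881213-102881241, minus strand: cagagattGTTGCCTAGCAACggcgccac
Dnaic2, chr11:114727378-114727406, minus strand: gtttaccaGTTGCCTAGCAACcctggccg
Dnaic1, chr4:41569767-41569795, minus strand: ctgacgcgGTTACCCAGCAACcgacaggc
Hydin, chr8:110266948-110266977, minus strand: taccatctGTTGCCACAGCAACcgcagagt
Cfap54, chr10:93081630-93081658, plus strand: gacaagcgGTTGCCAAGCAACgatctccc
Cfap44, chr16:44394764-44394793, minus strand: ttactgcgGTTGCCATAGCAACgtccctcc
Tekt2, chr4:126325697-126325725, plus strand: cggctctgGTTGCCGAGCAACcgccccct
Dnaaf1, chr8:119575268-119575297, minus strand: ctttcccgGTCGCCGCGGCAACcagtgcgc
Dnaaf2, chr12:69198425-69198454, plus strand: cgtgctttGTTGCCATAGTAACgcctggga
Spag16, chr1:69826859-69826888, plus strand: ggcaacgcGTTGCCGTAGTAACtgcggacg
Spag6, chr2:18698342-18698370, plus strand: ttggaaatGTCACCGAGCAACaaaataag
Ccno, chr13:112987575-112987604, minus strand: cgtctgtcGTCACCGTGGCAACcgcagccc
Ccdc103, whose promoter overlapped a peak of every list, and Dnaic2, whose promoter overlapped none, carried the same 13 letters. Of the 12 X-boxes, 7 were centred within 60 bp upstream of the TSS (a limit chosen after their positions were seen, which 204 of the 785 genes with an X-box in the window also met), 10 lay on the strand opposite to their gene, 9 lay under an H3K4me3 peak and 1, that of Ccdc103, lay under an Rfx2 peak.

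H3K4me3 was the mark these promoters most often had. It was present at 32 of the 46 promoters (69.6%, 54.2 to 82.3), beside 54% of all genes. H3K27Ac was present at 12 (26.1%, 14.3 to 41.1), beside 44.1% of all genes, and MOF at 10 (21.7%, 10.9 to 36.4), beside 23.7%. Rfx2 was present at 2, Foxj1 and Ccdc103 (4.35%, 0.531 to 14.8), beside 1.21% of all genes. These intervals are exact binomial ones and cover only counting over genes in these libraries. Among the 32 promoters with H3K4me3, 12 also had H3K27Ac (37.5%, 21.1 to 56.3) and 20 did not, whereas 79.8% of all genes with H3K4me3 had H3K27Ac. Of the further motile cilia genes (a list of 63), 25 of 42 with H3K4me3 had H3K27Ac (59.5%, 43.3 to 74.4). MOF was present at 9 of those 32 (28.1%, 13.7 to 46.7), beside 42% of all genes with H3K4me3, and Rfx2 at 2 (6.25%, 0.766 to 20.8), beside 2.24%. The commonest state was H3K4me3 alone, at 14 promoters (30.4%, beside 9.25% of all genes), followed by no peak at all, at 13 (28.3%, beside 44.1% of all genes).

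**Figure D1:**
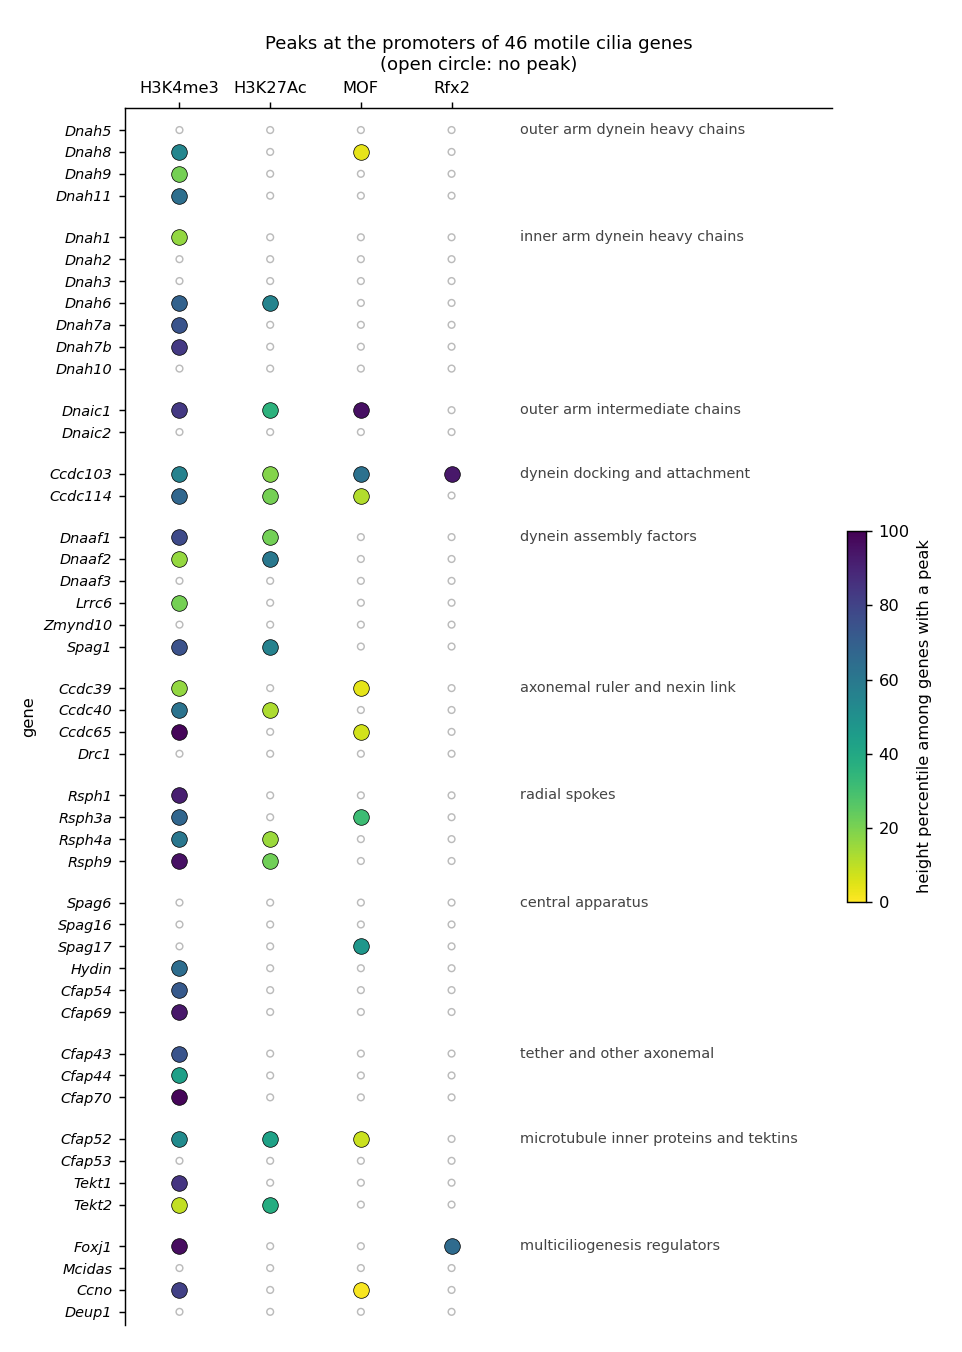
Peaks at the promoters of the 46 motile cilia genes (rows, grouped by role) in the 4 peak lists (columns, 1 library each); a filled circle is a peak, coloured by its height percentile among all genes with a peak of that list (fold enrichment, or the score for MOF), and an open circle is no peak. The H3K4me3 column is filled for 32 genes and the H3K27Ac column for 12, and Ccdc103 is the row with all 4.

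Genes of the primary cilium, from lists of intraflagellar transport, BBSome, transition zone and centriole genes, gave another picture in the same libraries. Of 108 such genes, 107 had H3K4me3 (99.1%, 94.9 to 99.98), 102 had H3K27Ac (94.4%, 88.3 to 97.9), 54 had MOF (50%, 40.2 to 59.8) and 20 had Rfx2 (18.5%, 11.7 to 27.1). Of all genes, 54% had H3K4me3 and 44.1% had H3K27Ac. For H3K4me3 and H3K27Ac the intervals of the motile and primary genes did not overlap in any of the 3 primary subgroups. Such intervals cover only counting over genes in these libraries and leave the error between libraries unmeasured. The gene lists were also chosen with earlier results of these data known, so the lack of overlap is no test between the sets. For MOF the subgroups spread from 33.3% (17.96 to 51.8) for intraflagellar transport and motors to 64.7% (46.5 to 80.3) for centriole and basal body genes, and the interval of the motile genes overlapped that of the intraflagellar transport genes and that of the BBSome and transition zone genes. The H3K4me3 difference remained with 500 bp on either side of the TSS (69.6% and 99.1%) and with the stronger 50% of the list (41.3% and 97.2%). When the centre of the peak had to lie in the window, H3K4me3 remained at 45.7% of motile and 44.4% of primary cilium genes. The window ends 100 bp past the TSS, so this rule can drop wide peaks that cover the TSS. Primary cilium peaks had a median width of 1309 bp against 771 bp, and 106 of the 107 covered the TSS. These shares therefore cannot be read as likeness of the sets. For Rfx2 the motile genes lay near the centriole genes, of which 2 of 34 had a peak, and below the BBSome and transition zone genes, of which 13 of 41 did. Of the intraflagellar transport and motor genes 5 of 33 had Rfx2 (15.2%, 5.11 to 31.9), an interval that overlapped that of the motile genes. A further list of 63 genes of motile cilia, from axonemal dynein chains to microtubule inner proteins, had H3K4me3 at 42 (66.7%, 53.7 to 78.0), H3K27Ac at 25 (39.7%, 27.6 to 52.8), MOF at 13 (20.6%, 11.5 to 32.7) and Rfx2 at 9 (14.3%, 6.75 to 25.4).

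**Figure D2:**
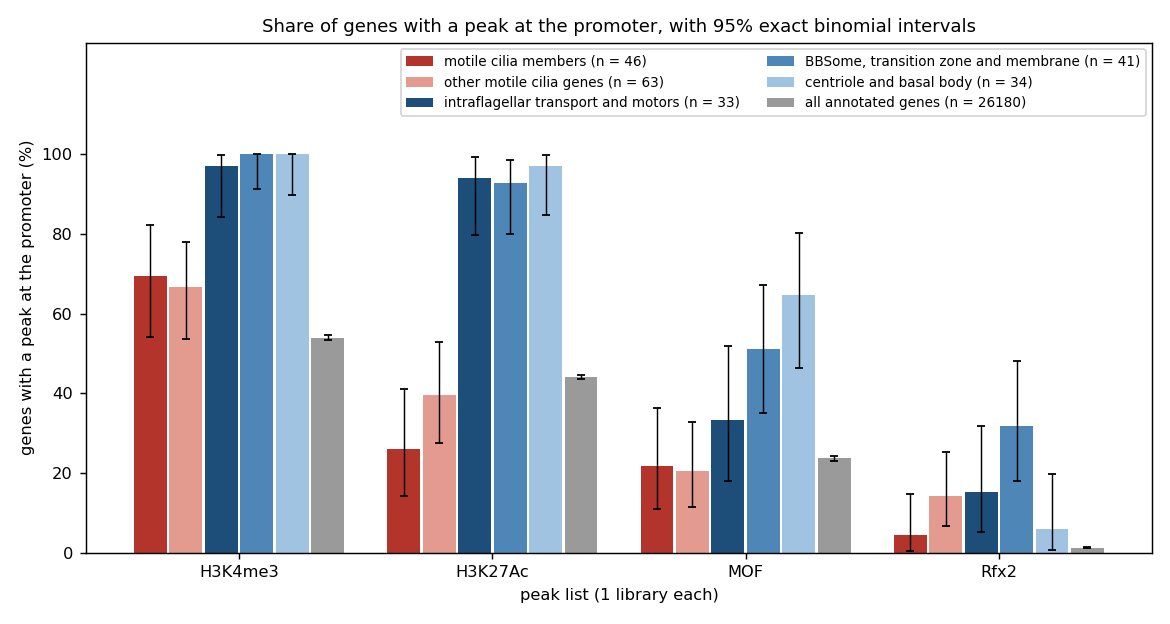
Share of genes with a peak at the promoter (y axis, %) for each peak list (x axis) in the 46 motile cilia genes, the further motile cilia genes, the 3 primary cilium subgroups and all annotated genes; bars start at 0 and whiskers are exact binomial 95% intervals over genes. The motile cilia bars are 69.6% for H3K4me3 and 26.1% for H3K27Ac, whereas every primary cilium bar for these marks exceeds 90%.

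Marker genes of the tissue were counted in the same way. Of 21 keratinocyte markers, 16 had H3K4me3 (76.2%, 52.8 to 91.8, beside 54% of all genes) and 12 had H3K27Ac (57.1%, 34.0 to 78.2, beside 44.1%). Both intervals hold the share of all genes. Krt14, the basal keratin, and Krt15 had both marks, and Krt5 and Trp63, the epidermal lineage factor, had H3K4me3 alone. The differentiation genes Krt1, Krt10, Lor and Ivl had no peak. Of 24 genes of tissues absent from epidermis, such as Alb and Prm1, 1 (Snap25) had H3K4me3 and 1 (Sftpc) had H3K27Ac. Of 7 melanocyte markers 3 had H3K4me3, and of 8 Langerhans and T cell markers 1 did (Epcam). Of 8 fibroblast and endothelial markers 4 did (50%), near the share of all genes. The melanocyte genes Pmel and Mitf had both marks and Mlana had H3K4me3, while Dct, Tyr, Tyrp1 and Sox10 had no peak. Among fibroblast genes Col1a2 and Pdgfra had H3K4me3 with MOF and Dcn had both marks, and Col1a1 and Col3a1 had no peak. Of the endothelial genes Kdr had H3K4me3 and Pecam1 and Cdh5 had no peak, and the 7 Langerhans and T cell markers other than Epcam, among them Cd207 and Cd3e, had none. The part of minor cell types in the peaks of the motile genes was not tested.

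The heavy chains, the motor subunits of the dynein arms, were marked unevenly with H3K27Ac at 1 of 11 promoters, beside 44.1% of all genes. Of the 4 outer arm heavy chains, Dnah8 (fold enrichment 8.33), Dnah9 (5.87) and Dnah11 (9.04) had H3K4me3 and Dnah5 had no peak. Fold enrichment is the height of a peak over the local background computed by the peak caller. Of the 7 inner arm heavy chains, Dnah1 (5.42), Dnah6 (9.46), Dnah7a (9.91) and Dnah7b (10.9) had H3K4me3, and Dnah2, Dnah3 and Dnah10 had no peak. Dnah6 was the heavy chain with H3K27Ac, at a fold of 7.00, and Dnah8 the one with MOF, at a score of 342. The Dnah8 peaks also covered the start of 1700097N02Rik, which lay 31 bp away on the opposite strand. Dnah7a and Dnah7b are paralogs of similar sequence, and whether reads were shared between their promoters was not tested, so their peaks are given as uncertain.

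The intermediate chains and docking factors, which hold the motors together and fix them to the doublet, included the promoter with peaks of all 4 lists, Ccdc103, and 1 with none. Dnaic1 had H3K4me3 (fold 10.9), H3K27Ac (5.93) and MOF, in peaks that also covered the start of Fam219a and cannot be assigned to either gene. The MOF score of 1454 at Dnaic1 was the highest of the 10 motile genes with MOF, at the 95.8th percentile of all genes with a MOF peak. Dnaic2, the partner chain of Dnaic1, had no peak, and its nearest H3K4me3 peak lay 37593 bp downstream. Ccdc103, a factor that attaches dynein arms, had H3K4me3 (8.44), H3K27Ac (4.89), MOF (score 758) and Rfx2 (fold 14.1, rank 24 of 337 Rfx2 peaks). Ccdc114, of the docking complex, had H3K4me3 (9.29), MOF (score 423) and 2 H3K27Ac peaks (5.03 and 3.08), but its H3K4me3 peak ended 192 bp before the TSS.

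The factors that assemble dynein arms in the cytoplasm had H3K4me3 at 4 of 6 promoters, beside 54% of all genes, and MOF at 0 of 6, beside 23.7%. Dnaaf1 (fold 10.2), Dnaaf2 (5.40) and Spag1 (10) had both H3K4me3 and H3K27Ac, Lrrc6 (5.87) had H3K4me3 alone, and Dnaaf3 and Zmynd10 had no peak. The H3K27Ac fold was 5.07 at Dnaaf1, 7.28 at Dnaaf2 and 7.06 at Spag1. At Dnaaf2 the H3K4me3 peak was 2388 bp wide and its summit lay 1664 bp downstream of the TSS, and the peak also covered the start of 9330151L19Rik. Of the ruler proteins that set the axonemal repeat, Ccdc39 had H3K4me3 (5.42) with MOF (score 355) and Ccdc40 had H3K4me3 (8.86) with H3K27Ac (4.396). Of the nexin link genes, Ccdc65 had H3K4me3 at a fold of 14.8, the highest of the 46 genes, with MOF at a score of 370, and Drc1 had no peak.

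Radial spoke genes had H3K4me3 at 4 of 4 promoters, beside 54% of all genes. The fold was 12.2 at Rsph1, 9.33 at Rsph3a, 8.78 at Rsph4a and 13.3 at Rsph9. Rsph4a (4.63) and Rsph9 (5.09) also had H3K27Ac, and Rsph3a had MOF (score 545). Central apparatus genes had H3K4me3 at 3 of 6 promoters, near the 54% of all genes: Hydin (9.09), Cfap54 (9.75) and Cfap69 (12.6). Spag6 and Spag16 had no peak. Spag17 had MOF without H3K4me3 (score 651, width 254 bp), the one gene of the 46 in that state. In all genes 233 promoters had MOF alone, which is 0.890%. H3K27Ac was at 0 of the 6 central apparatus genes, beside 44.1% of all genes.

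Cfap43, Cfap44 and Cfap70, of the tether and other axonemal complexes, had H3K4me3 alone, at folds of 9.91, 7.59 and 14.8. Among microtubule inner proteins and tektins, Cfap52 had H3K4me3 (8.18), H3K27Ac (6.29) and MOF (score 383), Tekt1 had H3K4me3 (11.0), Tekt2 had H3K4me3 (4.66, the lowest of the 46 genes) with H3K27Ac (6.04), and Cfap53 had no peak.

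Of the 4 regulators 2 had H3K4me3, beside 54% of all genes, and 0 had H3K27Ac, beside 44.1%. Foxj1, on the minus strand of chromosome 11 with its TSS at 116335354, had H3K4me3 at a fold of 13.7, the 96.8th percentile of all genes with H3K4me3, over 884 bp. It also had an Rfx2 peak at a fold of 8.45 (rank 103 of 337), 551 bp wide, with its summit 62 bp upstream of the TSS. Its nearest H3K27Ac peak lay 28449 bp downstream, within 1 kb of the start of Exoc7. Ccno, a cyclin-like regulator of centriole amplification, had H3K4me3 (10.6, width 1016 bp) and the weakest MOF peak of the 10 (score 294, a percentile of 1.001). Mcidas, which acts at the top of the programme and neighbours Ccno, had no peak, and the H3K4me3 peak nearest to it, 5364 bp upstream, was that of Ccno. Deup1, of the deuterosome where centrioles are multiplied, had no peak, and its nearest H3K4me3 peak lay 80788 bp upstream at Slc36a4.

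The 120 bases before the Foxj1 TSS (RefSeq, GRCm38.p6, chr11:116335355-116335474, minus strand, 5′ to 3′) are shown because they hold the summit of its Rfx2 peak, with the closest match to the X-box in capitals.
Foxj1: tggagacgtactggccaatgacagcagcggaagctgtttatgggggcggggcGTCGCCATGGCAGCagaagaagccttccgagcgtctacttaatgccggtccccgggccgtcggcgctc
No exact X-box was found in the Foxj1 promoter window. The match in capitals differed from the X-box at 1 position and covered the summit, and the search for inexact matches was added after the peak was seen. Around the summits of 329 Rfx2 peaks on the assembled chromosomes, within 100 bp, the fewest mismatches were 0 at 47 peaks, 1 at 84, 2 at 118, 3 at 76 and 4 at 4. The exact X-box of Ccdc103 did not lie wholly within 100 bp of its Rfx2 summit, so that peak is counted among those with 2 mismatches.

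Rfx2 without H3K27Ac was rare in these libraries. Of the 317 genes with Rfx2 at the promoter, 7 had no H3K27Ac there, and 3 of the 7 belonged to motile cilia: Foxj1 and, of the further motile list, Dnal1, a dynein light chain (Rfx2 fold 5.63), and Cfap77 (6.43). None of the 20 primary cilium genes with Rfx2 was without H3K27Ac. Ccdc103, the other motile gene with Rfx2, shared its promoter: the start of Eftud2, a splicing factor, lay 249 bp away on the opposite strand and was also counted with Rfx2. The Rfx2 summit lay 106 bp downstream of the Ccdc103 TSS, and the Rfx2 peak did not cover the Eftud2 start. Of the other 7 further motile genes with Rfx2, all had H3K27Ac, and Ccdc151 (fold 10.04) and Enkur (10.5) were the highest.

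Of the 12 motile genes with an X-box in the window, 1 had an Rfx2 peak (8.33%, 0.211 to 38.5), as did 2 of 14 further motile genes, 9 of 17 primary cilium genes (52.9%, 27.8 to 77.0) and 83 of 785 genes overall (10.6%). The share in the motile genes was near that of all genes, and the intervals of the motile and primary genes overlapped. H3K4me3 was present at 9 of the 12 motile promoters with an X-box and at 23 of the 34 without one (75% and 67.6%), beside 60.3% and 53.8% of all genes. The site GTAAACA, to which forkhead factors such as Foxj1 bind, was sought on both strands and found in 6 of 46 motile promoters (13.04%, 4.94 to 26.3), beside 14.6% of all genes.

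The H3K4me3 peaks of the motile genes were narrow, and their rank in height depended on the measure. Their median fold was 9.39, the 68.3th percentile of all genes with H3K4me3, whose median was 8.04, and the median of the 107 primary cilium genes was 9.64. By the significance of the peak in place of fold the same 32 peaks lay at the 20.7th percentile. Their median width was 771 bp (range 249 to 2388), the 16.8th percentile, against 1306 bp in all genes and 1309 bp in primary cilium genes. The further motile genes were also narrow, at 915.5 bp, the 23.4th percentile. The 20 peaks without H3K27Ac had a median width of 581 bp and a median fold of 9.83, and the 12 with H3K27Ac had 1168 bp and 9.07. Without H3K27Ac the median width was 786.5 bp in all genes, 768 bp in further motile genes and 784 bp in 5 primary cilium genes. The narrowest were those of Ccdc39 (249 bp), Lrrc6 (271 bp) and Dnah1 (375 bp), all without H3K27Ac, and the widest that of Dnaaf2. H3K27Ac peaks of the motile genes had a median fold of 5.51, the 28.7th percentile, beside 6.72 in all genes, and their MOF peaks a median score of 403, the 9.77th percentile, beside 656.

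**Figure D3:**
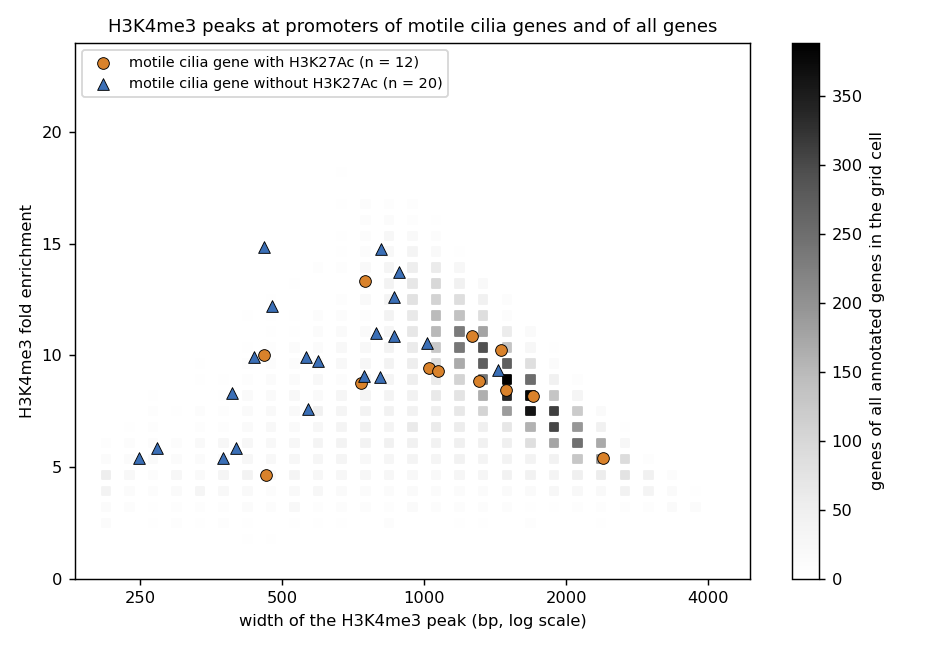
Width (x axis, bp, log scale) and fold enrichment (y axis) of the H3K4me3 peak at 32 motile cilia promoters, with H3K27Ac (circles) and without (triangles), over a grey grid that counts all genes with H3K4me3. The triangles have a median width of 581 bp and lie mostly left of the dark part of the grid, where widths exceed 1000 bp.

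Because narrow H3K4me3 peaks had H3K27Ac less often in all genes too, the share was read within classes of width. In the narrowest of 4 equal classes, up to 951 bp, 4 of 22 motile genes had H3K27Ac (18.2%), beside 8 of 21 further motile genes (38.1%), 12 of 16 primary cilium genes (75%) and 50.6% of all genes. In the next class, up to 1306 bp, 4 of 5 motile genes did, beside 82.7% of all genes. In the 2 wider classes 2 of 3 and 2 of 2 motile genes did, beside 92.2% and 93.9% of all genes. The CpG content of the promoter window gave a like reading. The median ratio of observed to expected CpG was 0.432 in the motile genes, 0.415 in all genes and 0.620 in primary cilium genes. Between ratios of 0.260 and 0.574, which hold 33 of the 46 motile genes, H3K4me3 was present at 22 of the 33 (66.7%), beside 61.1% of all genes and 40 of 41 primary cilium genes. In that range H3K27Ac was present at 7 of those 22 (31.8%), beside 72.9% of all genes with H3K4me3 and 39 of 40 primary cilium genes. Above it the order of H3K4me3 against all genes was the opposite, with 9 of 11 motile genes (81.8%) beside 93.9%. There H3K27Ac was present at 4 of those 9 (44.4%), beside 86.1% of all genes with H3K4me3. Below it 1 of 2 motile genes had H3K4me3, beside 6.94% of all genes. Neither width nor CpG content was held equal between the sets within a class.

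**Figure D4:**
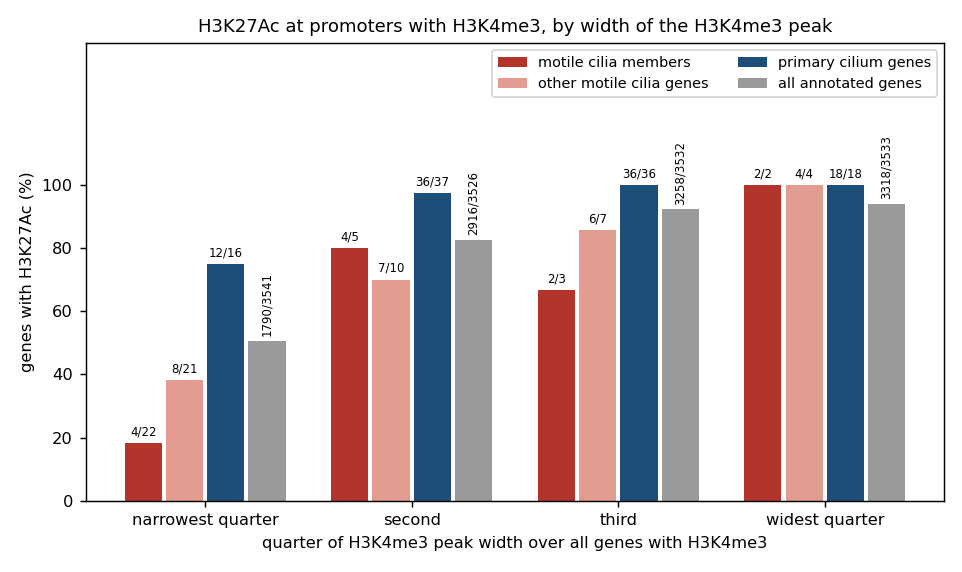
Share of genes with H3K27Ac (y axis, %) among genes with H3K4me3, by width class of the H3K4me3 peak (x axis, 4 equal classes of all genes), for motile cilia, further motile cilia, primary cilium and all genes; numbers over the bars are genes with H3K27Ac over genes in the class. In the narrowest class 4 of 22 motile cilia genes and 12 of 16 primary cilium genes had H3K27Ac.

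The window that chose the peaks contains the TSS. Of the 32, 29 covered the TSS (90.6%, beside 88.8% of all genes with H3K4me3 and 99.1% of primary cilium genes), and 23 had their summit within 250 bp of it (71.9%, beside 56.4% and 67.3%). The median distance of the summit from the TSS was 118.5 bp, beside 211 bp in all genes and 149 bp in primary cilium genes. The exceptions were Ccdc114, Dnah9 and Ccdc39, whose peaks stopped 192, 13 and 6 bp short of it. The start of another gene lay under 8 of the 32 peaks (25%, 11.5 to 43.4), beside 25.1% in all genes. It lay under 6 of the 12 peaks with H3K27Ac (Dnaic1, Ccdc103, Dnaaf1, Dnaaf2, Ccdc40 and Cfap52) and under 2 of the 20 without (Dnah8 and Rsph3a), that is 50% and 10%, beside 28.6% and 11.3% in all genes. The neighbours were Fam219a at 256 bp from Dnaic1, Hsdl1 at 60 bp from Dnaaf1, Tbc1d16 at 73 bp from Ccdc40 and Stx8 at 816 bp from Cfap52, each on the opposite strand. A peak between such a pair cannot be assigned to either gene. Of the 10 motile genes with MOF, 5 had a MOF peak over the start of another gene (50%, 18.7 to 81.3), beside 29.8% in all genes. They were Dnaic1, Ccdc103, Cfap52, Rsph3a and Dnah8. Where the H3K4me3 peak covered no other start, 6 of 24 motile genes had H3K27Ac (25%, 9.77 to 46.7): Dnah6, Ccdc114, Spag1, Rsph4a, Rsph9 and Tekt2. The share in the same class was 76.1% in all genes, 11 of 27 in the further motile genes (40.7%, 22.4 to 61.2) and 67 of 72 in primary cilium genes (93.1%, 84.5 to 97.7).

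**Figure D5:**
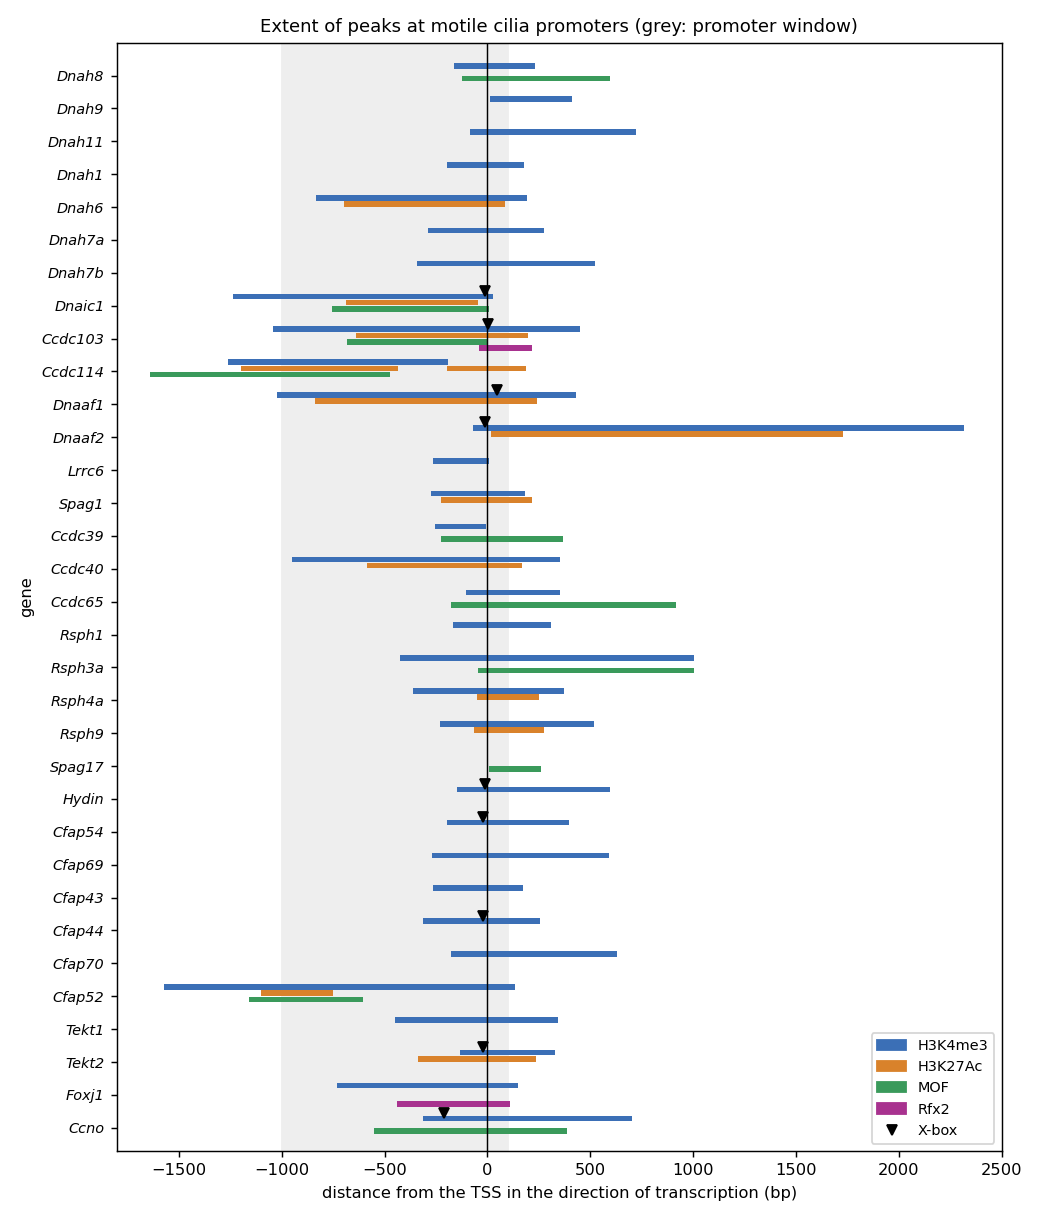
Extent of each peak (coloured bars, 1 colour for each list) in bp from the TSS in the direction of transcription (x axis) at the 33 motile cilia genes with a peak (rows); black triangles mark X-boxes and the grey band the promoter window. H3K4me3 covers the TSS of 29 of these genes, Rfx2 appears at Ccdc103 and Foxj1, and at Cfap52 the H3K27Ac and MOF peaks lie more than 500 bp upstream, towards Stx8.

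Promoters just outside the window rule were few. Of the 14 genes without H3K4me3, Dnah2 had the nearest such peak, 1596 bp downstream (fold 8.96), with H3K27Ac at 1670 bp and MOF at 1894 bp, followed by Spag6 (3897 bp upstream) and Dnah10 (4500 bp downstream). Rsph3a had H3K27Ac 309 bp downstream of its TSS, within its H3K4me3 peak and near the start of Gm1604a. Rsph1 had H3K27Ac 1567 bp downstream, Dnaic2 had H3K27Ac 2005 bp upstream (fold 3.47), and Cfap54 had MOF 1547 bp upstream. Predicted transcripts, which RefSeq models without full support, start near the outlying peaks of some genes: with them Dnah2 and Spag6 gained H3K4me3, Dnah2, Spag6 and Cfap43 gained H3K27Ac, and Dnah2 and Cfap54 gained MOF.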

How the data were processed

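Peak lists of 4 libraries of newborn epidermis were read as deposited. Per the study's methods, the authors aligned reads to mm10 with Bowtie2 and called peaks with MACS2 on each library (without a fragment model for MOF, and on whole paired fragments for the Cut&Run libraries). The deposited Rfx2, H3K4me3 and H3K27Ac lists (337, 27039 and 30736 peaks) give fold enrichment, a ratio over local background, a score, the −log10 q-value and the −log10 p-value. The deposited MOF list (17546 peaks) gives a score of unstated scale, used here only to rank its own peaks, and it holds more peaks than the authors counted, so which MOF call it represents is uncertain. The labels attach the H3K4me3 list to the repeat library, but its name lacks the repeat mark, so its library is uncertain. The remaining libraries were not used here.

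Windows were built around the starts of curated RefSeq transcripts (Python 3.11.15, NumPy 2.4.6), and exact binomial 95% intervals came from SciPy 1.17.1. The members and gene lists were chosen with earlier results of these data known, as were the X-box pattern and the alternatives. Values are given for every member with Rfx2 or MOF, the 10 highest and 5 lowest H3K4me3 folds (with a tie, and the remaining marked members for completeness), the 4 regulators, the 3 unmarked members nearest an H3K4me3 peak, and, in other lists, genes with Rfx2. Rsph10b and Flg were in the lists but matched no RefSeq symbol. Alternatives were other windows, a peak centre in the window, the stronger 50% of each list, other choices of TSS and leaving out genes with a neighbouring start.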

Additional observations from a re-analysis of the deposited data

How the results depend on the processing

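Of 127 values under alternative settings, 103 stayed within 1.5 times the reported count, or within the interval set for them, and 24 moved. No paired analysis was possible because the antibodies had 1 list apiece. The shares of all genes with a peak were not computed under the alternative settings. Whether the motile genes moved more than all genes did is therefore unknown. When the peak centre had to lie in the window, motile genes with H3K4me3 fell to 21 of 46 (45.7%), those with MOF to 5, and those with H3K4me3 and no H3K27Ac to 12 of 21. That rule also left H3K4me3 at 48 of 108 primary cilium genes (44.4%) and Rfx2 at 13 of them. H3K27Ac remained at 16 of 63 further motile genes. The rule can drop wide peaks that cover the TSS, so the like H3K4me3 shares of motile and primary cilium genes cannot be read as likeness. With the stronger 50% of each list, motile genes had H3K4me3 at 19, H3K27Ac at 6 and MOF at 3 (41.3% with H3K4me3), primary cilium genes had H3K4me3 at 105 (97.2%), H3K27Ac at 91, MOF at 34 and Rfx2 at 12, and further motile genes had MOF at 6 and Rfx2 at 4. Without genes that had another start within 1 kb, 38 motile genes remained, with H3K27Ac at 7, MOF at 5 and Rfx2 at 1. Under that setting 34 of 75 primary cilium genes had MOF, and of 46 further motile genes 26 had H3K4me3, 12 had H3K27Ac, 5 had MOF and 4 had Rfx2. Ranked by significance, H3K4me3 and H3K27Ac heights of the motile genes fell to the 20.7th and 16.6th percentile, and GTAAACA was found in 2 motile promoters (4.35%, beside 3.62% of all genes) when 250 bp before to 50 bp after the TSS was searched. Settings added after the data were seen were those for H3K4me3 without H3K27Ac, the 60 bp limit and the inexact X-box. The lists give no depth, so an absent peak is a peak not called, and 1 library for each antibody leaves the error between libraries unmeasured.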

Other observations

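Away from promoters, the bodies of the 46 motile genes, 5.56 Mb in all, held 23 H3K4me3 peaks (0.413 per 100 kb, beside 0.723 in all gene bodies), 30 H3K27Ac peaks (0.539 beside 1.06), 18 MOF peaks (0.323 beside 0.591) and no Rfx2 peak, beside 43 Rfx2 peaks in all gene bodies (0.00386 per 100 kb). Primary cilium genes had 0.416, 0.850 and 0.503 per 100 kb for H3K4me3, H3K27Ac and MOF, and the 63 further motile genes had 0.752, 0.840 and 0.685. By genes with at least 1 such peak the order against all genes was the opposite, with H3K4me3 in 34.8% of motile genes (19.1% of all genes), H3K27Ac in 34.8% (19.7%) and MOF in 30.4% (17.1%). These shares were not adjusted for gene length: the 46 bodies spanned 5.56 Mb, and the bodies of all 26180 genes 1113 Mb. Dnah2, which had no peak in its promoter window, held the most of the 46, with 5 H3K4me3, 7 H3K27Ac and 2 MOF peaks over 128.3 kb. Spag16, the longest at 898 kb, held none. The H3K4me3 peak nearest to Spag17 lay 95602 bp inside its gene and had a fold of 23.5, above the highest fold at any gene promoter (20.6).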
